A study of Mus musculus with 2031 samples.

Results

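The genes described here are 47 cell cycle genes of the mouse, taken by symbol from a table of 49671 genes in which single brain cells were sequenced. They were chosen by their roles in the cell cycle: cyclins, cyclin-dependent kinases and their inhibitors, the factors that license and copy DNA, and the proteins that build the mitotic spindle and separate chromosomes. All 47 were found in the table. For every cell the members with at least 1 count were counted, to find cells that carried a division programme and to describe the members detected in cells without it. For this count 26 members were set apart as phase-restricted, because in textbook accounts their RNA is made in S, G2 or M phase. The other 21 are also used in G1 or at rest.

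The cells came from cortex and hippocampus of untreated C57BL/6J mice at an age of 56 days. Each of 2 cortical suspensions was made from a single mouse, whereas each of 2 hippocampal suspensions pooled several littermates. Live cells were sorted one by one as positive for ACSA-2, an antibody against the astrocyte surface protein ATP1B2, and negative for O1, which marks oligodendrocytes. Libraries were made with Smart-seq2, which copies full-length cDNA and adds no molecular tag, so a count is a read. The suspensions are named cortex 1, cortex 2, hippocampus 1 and hippocampus 2, and gave 541, 521, 464 and 504 cells. Counts were summed by suspension for the tests, since cells of a suspension share mice and preparation. Sums of several types from a suspension entered the main fits without a term for it. Intervals on shares count cells. With 2 suspensions a region, p-values measure only the spread between these preparations.

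Cell types were those assigned by the study. They divide 1781 astrocytes into subtypes AST1 (657 cells), AST2 (555), AST3 (452), AST4 (91) and AST5 (26), and add mural cells (27, 12, 48 and 47 in the order of suspensions above), 30 endothelial, 17 neuronal, 11 microglial and 9 oligodendrocytic cells. No type was at hand for 48 cells. Subtypes were clustered by the study from the expression of these same cells, so a member that helped to form a cluster would differ in it by construction. Depth ran from 600758 to 3238215 gene counts per cell, with medians of 1352000 to 1545000 per suspension. Astrocyte markers summed to 44110 to 46870 CPM, the counts of a gene scaled by the total of all genes, in AST1 and to 18040 to 31720 CPM in AST4. AST4 cells also had more detected genes, with a median of 2562 against 1992 in AST1, 2077 in AST2, 2440 in AST3 and 1674 in AST5. The part of these differences in the results was not tested.

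A dividing cell passes from G1, when D-type cyclins with Cdk4 or Cdk6 release E2F factors from the retinoblastoma protein, through DNA synthesis in S phase, to G2 and mitosis, which are driven by Cdk1 with cyclins A and B. Many of the genes needed for S phase are switched on by E2F at the start of the cycle, and many mitotic genes later, through a promoter element known as the cell cycle genes homology region, or CHR. In the adult brain most astrocytes are at rest, while neural stem cells and progenitors of the hippocampal dentate gyrus go on dividing.

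Promoters are shown for 4 mitotic members that were rare outside 2 cycling cells, and for 2 licensing members. Each was chosen together with the letters marked in it, so they do not show how common these letters are among members. Whether the letters act in these cells was not tested. The windows are from RefSeq on build GRCm38.p6, 250 bases before to 50 bases after the start of the gene, and are written in the direction of the gene. Capitals mark TTTGAA, the CHR letters, in the mitotic genes Cdk1 (chr10:69352863-69353162, minus strand), Ccnb2 (chr9:70421505-70421804, minus), Mki67 (chr7:135716330-135716629, minus) and Top2a (chr11:99024140-99024439, minus). In Mcm6 (chr1:128359656-128359955, minus) and Mcm5 (chr8:75109259-75109558, plus) they mark TTTGGCGC, an E2F site.
Cdk1: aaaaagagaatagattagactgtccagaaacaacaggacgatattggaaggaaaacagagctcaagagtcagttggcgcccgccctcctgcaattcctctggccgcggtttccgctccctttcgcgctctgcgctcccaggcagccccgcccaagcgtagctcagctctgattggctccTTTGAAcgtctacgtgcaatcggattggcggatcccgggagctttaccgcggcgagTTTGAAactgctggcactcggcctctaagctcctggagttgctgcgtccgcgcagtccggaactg
Ccnb2: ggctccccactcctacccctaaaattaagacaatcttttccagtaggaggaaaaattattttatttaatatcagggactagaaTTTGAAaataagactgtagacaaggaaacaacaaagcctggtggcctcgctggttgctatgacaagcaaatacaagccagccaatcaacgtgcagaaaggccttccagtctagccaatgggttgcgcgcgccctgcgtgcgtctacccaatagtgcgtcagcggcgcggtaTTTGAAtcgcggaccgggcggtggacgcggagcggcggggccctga
Mki67: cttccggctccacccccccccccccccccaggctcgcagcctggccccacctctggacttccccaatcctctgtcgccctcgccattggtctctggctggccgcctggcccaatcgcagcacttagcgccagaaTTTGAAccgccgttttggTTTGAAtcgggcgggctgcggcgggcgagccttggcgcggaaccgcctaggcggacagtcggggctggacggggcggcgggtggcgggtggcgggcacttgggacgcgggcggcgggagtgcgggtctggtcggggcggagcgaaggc
Top2a: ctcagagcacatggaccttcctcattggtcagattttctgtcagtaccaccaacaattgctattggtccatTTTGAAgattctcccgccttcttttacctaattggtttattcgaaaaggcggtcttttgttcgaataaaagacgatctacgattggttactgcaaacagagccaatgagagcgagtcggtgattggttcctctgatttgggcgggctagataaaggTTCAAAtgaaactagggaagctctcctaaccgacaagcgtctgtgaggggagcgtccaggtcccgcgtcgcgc
Mcm6: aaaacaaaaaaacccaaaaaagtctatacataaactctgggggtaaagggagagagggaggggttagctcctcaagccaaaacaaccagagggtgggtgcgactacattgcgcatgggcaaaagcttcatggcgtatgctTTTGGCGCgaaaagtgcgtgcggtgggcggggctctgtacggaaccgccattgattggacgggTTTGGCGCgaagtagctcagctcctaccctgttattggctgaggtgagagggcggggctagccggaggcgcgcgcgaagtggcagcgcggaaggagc
Mcm5: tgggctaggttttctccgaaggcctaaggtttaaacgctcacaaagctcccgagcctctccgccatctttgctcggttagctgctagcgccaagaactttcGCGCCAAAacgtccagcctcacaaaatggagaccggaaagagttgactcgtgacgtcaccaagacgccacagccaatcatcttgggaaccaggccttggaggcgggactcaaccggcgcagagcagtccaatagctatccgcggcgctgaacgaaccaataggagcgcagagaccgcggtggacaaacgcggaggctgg
The CHR letters began 71 and 15 bases before the start in Cdk1, the mitotic kinase, and the nearer of the matches 98 bases before it in Mki67, the gene of the Ki-67 antigen. In Ccnb2, cyclin B2, the nearer match began 5 bases after the start. Top2a, the topoisomerase that untangles chromosomes, had the nearer one 23 bases before the start, as the reverse complement TTCAAA. The E2F letters lay 110 and 47 bases before the start of Mcm6, and Mcm5 had them once, as the reverse complement GCGCCAAA.

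A window was at hand for 38 of the 47 members, 23 of them phase-restricted and 15 not. TTTGAA on either strand was in 15 of the 23 phase-restricted members and in 2 of the 15 others, Hmgb2 and Mcm2, beside 20.2% of 27025 genes with a window. The E2F letters TTTGGCGC were in 0 of the 23 and in 3 of the 15 (Mcm3, Mcm5 and Mcm6), beside 0.585% of genes. Any of the searched E2F spellings (TTTGGCGC, TTTCGCGC, TTTCCCGC, TTCCCGCC, GCGGGAA and TTTGGCGG, which overlap each other) was in 2 of the 23 and 6 of the 15, beside 6.58%. CCAAT, the box bound by NF-Y, was in 18 and 11 members, beside 41.1%, and GGGCGG, bound by Sp1, in 19 and 12, beside 38.2%. TTCGAA, a variant of the CHR, was in 3 and 1 members, beside 1.8%. These are matches of letters in a window and not measured sites.

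A division programme with mitotic members was rare among the sorted cells. Cdc6, Rrm2 and Tyms are the only licensing or DNA synthesis genes among the 26. A cell in G1 or early S phase can therefore fall short of 5, and the count below leans to G2 and M phase. At least 5 of the 26 phase-restricted members were detected in 2 of 1781 astrocytes, or 0.112% (exact 95% binomial interval 0.0136 to 0.405%), and in 0 cells of any other type. Both cells were AST4, at 1 of 41 AST4 cells in hippocampus 1 and 1 of 48 in hippocampus 2. This is 2.20% of all 91 AST4 cells (0.267 to 7.72%). The study proposes that AST4 are stem or progenitor cells of the hippocampus. The share of 1781 thus covers these cells together with the other subtypes and is not a rate for mature astrocytes. Of all 2030 cells 1756 had none of the 26, most of the rest had 1, 14 had 2, 2 had 3 and 0 had 4. On these 26 members the 2 cells lay apart from the rest, and they are called cycling cells here. The name follows this count alone and does not mean that every other cell was outside the cycle. On all 47 members 3 cells lay apart, with 35, 23 and 20 members against at most 10 in any other cell. The last of these is an AST4 cell with 3 of the 26, described below, and is not counted in the 2 of 1781. A count of 0, taken as fewer than 3 cells of a type, allowed a share of up to 0.457% in AST1, 0.541% in AST2, 0.664% in AST3, 11.5% in AST5, 2.24% in mural and 10% in endothelial cells. Reads are not independent molecules, and these intervals and limits cover counting error only. At 8 members in place of 5, at 10 counts in place of 1, or with every cell thinned to 500000 counts, 2 cells were found, and at 3 members there were 4 cells.

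**Figure D1:**
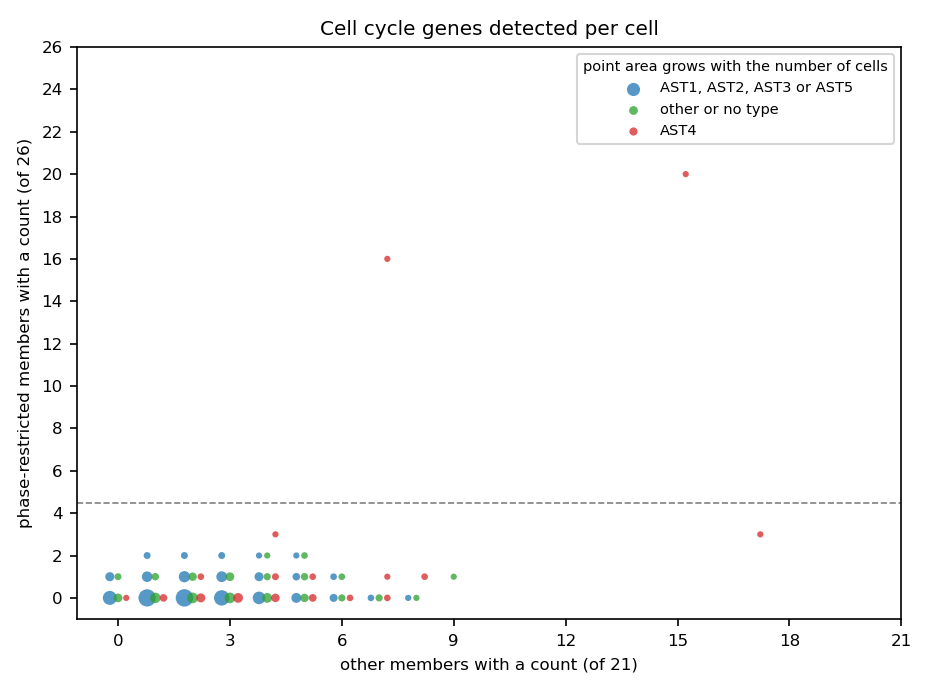
Number of phase-restricted members with a count (of 26, vertical axis) against the number of other members with a count (of 21, horizontal axis) in each cell, with point area growing with the number of cells and the dashed line at the limit of 5. The 2 AST4 cells above the line had 20 and 16 phase-restricted members, another AST4 cell had 3 of these with 17 others, and every remaining cell had at most 3 of the 26.

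The first of the 2 cycling cells, from hippocampus 1, had counts of 35 of the 47 members and 20 of the 26, and the second, from hippocampus 2, of 23 and 16. They are called the first and the second cell below. Both held the mitotic engine: Cdk1 was at 1722 counts in the first and 1086 in the second, its partner Ccnb1, cyclin B1, at 3080 and 4654, and Ccna2, cyclin A2, at 4831 and 1364. Mki67 had 1411 and 5046 counts and was at 0 in the rest of the cells. Among regulators of mitotic entry and exit, Aurka, a spindle pole kinase, had 1146 and 1043 counts, Aurkb, the kinase of the chromosomal passenger complex, 973 and 1738, and Cdc20, which activates the anaphase-promoting complex, 1015 and 2848. The passenger subunits Cdca8 (2802 and 2658 counts) and Birc5 (1576 and 1445) and the spindle assembly factor Tpx2 (2995 and 5001) were also high in both.

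The 2 cells differed in the DNA synthesis members. The first cell had 3573 counts of Pcna, the sliding clamp of DNA polymerase, 1679 of Rrm1 and 2127 of Rrm2, the subunits of ribonucleotide reductase, and 1774 of Tyms, thymidylate synthase. The second cell had 0 counts of all 4. Top2a, at 4187 counts, Ube2c, the ubiquitin-conjugating enzyme of anaphase (829), Bub1, a checkpoint kinase (735), Nusap1, a spindle protein (2282), and Kif23, a motor of the central spindle (1447), were in the first cell and at 0 in the second. Conversely, Plk1, polo-like kinase 1 (1169 counts), Cenpe, a kinetochore motor (1121), and Anln, the actin-binding anillin of the cleavage furrow (1000), were in the second cell and at 0 in the first. Their totals were 2131560 and 1916019 gene counts, with 2819 and 2639 detected genes. A single cell of each kind has no replicate, so these are differences between cells and not between stages.

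The members gave 3.18% of all gene counts of the first cell and 2.21% of those of the second. Further genes of the pathway were read in 5 lists. Of 35 mitosis factors outside the members each cell had 23, where the other AST4 cells had a median of 5. Of 38 replication factors they had 14 and 9, against a median of 3. The first and second cell had 4 and 6 of 19 genes of CDK activation and checkpoints (median 2), 4 and 1 of 19 genes around RB and E2F (median 1), and 4 and 1 of 13 other inhibitors and p53 genes (median 2). Thus the second cell was at or below the median of the other AST4 cells in the last 2 lists. Cdc25b, the phosphatase that activates Cdk1, had 3657 counts in the second cell and 0 in the first. Cks1b, a small Cdk-binding subunit, had 1690 and 1247. The other AST4 cells had astrocyte markers at a median of 31790 CPM over 8 genes, with a range of 3047 to 48410. The first cell, at 1178 CPM, lay below all of these, and the second, at 8580 CPM, below their median. Markers of mural, endothelial, microglial, oligodendrocytic and neuronal cells were at 0 in both, except Vtn with 1 count in the first.

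Another AST4 cell of hippocampus 1, picked out after its values were seen, carried the licensing members and none of the mitotic cyclins and kinases among the members. It had 20 members, of which 3 were phase-restricted, and all 8 of the licensing group. The helicase subunits Mcm2 to Mcm7 had 2263, 2530, 2598, 692, 3076 and 1629 counts, and it was the only one of the 2030 cells with all 6. Cdc6, which loads this helicase, had 1725 counts and Gmnn, geminin, which blocks its reloading, 514. Ccne2, cyclin E2, had 60 counts and Cdk2, its kinase, 53, while Cdk1, Ccna2, Ccnb1 and Mki67 were at 0. Of the further replication factors 22 of 38 were detected and of the mitosis factors 11 of 35, against at most 8 and 7 in the other AST4 cells. Foxm1, which drives mitotic transcription, had 748 counts. It had 7 of 19 genes around RB and E2F, against at most 4. With 6 genes of CDK activation and 3 other inhibitors it lay within their range, up to 6 in both. Its astrocyte markers, at 4683 CPM, lay below their median of 31790 CPM. Members gave 1.91% of its counts. The 3 cells came from 3 plates, and the members' shares, levels and calls in AST4 are given below with and without them.

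**Figure D2:**
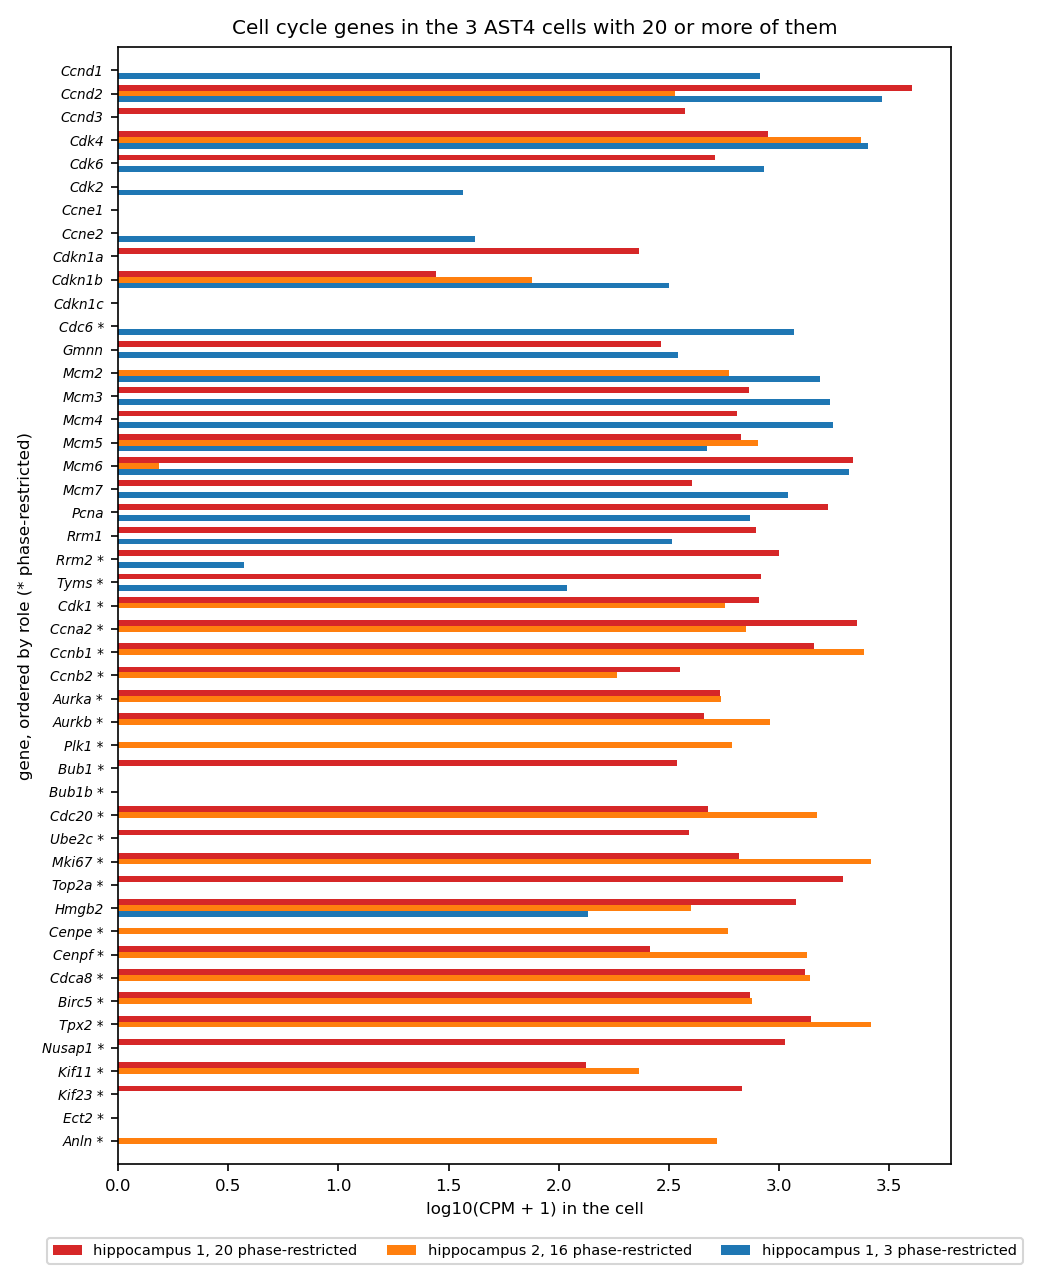
Level of each member, as log10(CPM + 1), in the 3 AST4 cells with 20 or more members, ordered by role, with an asterisk for phase-restricted members. The first (20 phase-restricted) and second (16) cells fill the mitotic part of the list, and the third (3 phase-restricted) fills the licensing part and is at 0 for Cdk1, Ccna2, Ccnb1 and Mki67.

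Over all astrocytes, the 3 cells included, the members were unevenly detected. Of the 47 members 3 had a count in more than 25% of astrocytes, 5 in more than 10%, 10 in more than 5%, and 24 in 1% or less. The 5 broadest were Cdkn1b at 62.2%, Ccnd2 at 28.7%, Cdk4 at 26.95%, Ccnd3 at 23.8% and Pcna at 12.2%, and next came Hmgb2, a chromatin protein, at 7.75%. Per length, the astrocyte level was highest for Cdk4 with 35.4 CPM per kb of exon, followed by Pcna with 13.3, Cdkn1b with 12.6 and Ccnd3 with 10.7, so that the order by level was not the order by share of cells. For 5 members (Cdk1, Aurkb, Bub1, Mki67 and Kif23) all astrocyte counts lay in the 3 AST4 cells, and for 17 members over 50% did, 16 of them phase-restricted. A cell had a median of 2 members in AST1, AST2, AST3 and AST5, 3 in AST4 and mural cells and 4 in endothelial cells and neurons, and 9.21% of all cells had none.

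**Figure D3:**
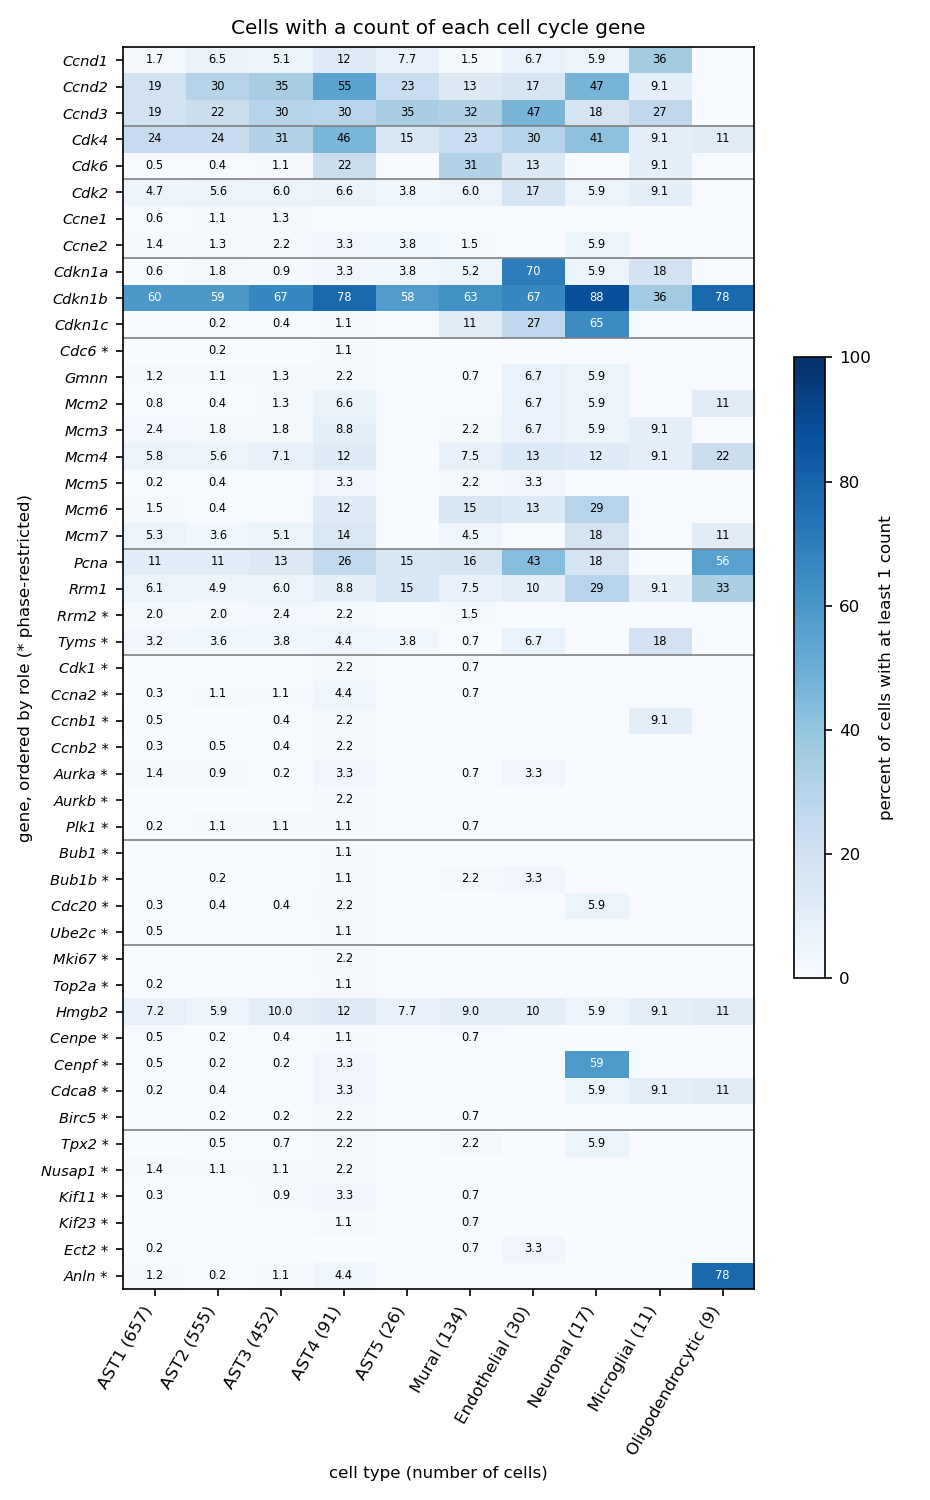
Percent of cells with at least 1 count of each member (rows, ordered by role, phase-restricted members with an asterisk) in each cell type (columns, with the number of cells), in which blank cells are 0. Cdkn1b fills its row, the D cyclins and Cdk4 follow, and most mitotic members are near 0 in every type, AST4 included, with Cenpf in neurons (58.8%) and Anln in oligodendrocytic cells (77.8%) as exceptions.

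The D cyclins carry growth signals into G1. Ccnd2, cyclin D2 (chromosome 6, 127125162 to 127152193 on GRCm38), was the broadest in astrocytes, with a count in 33.8% of cells in cortex 1, 32.9% in cortex 2, 24.4% in hippocampus 1 and 22.2% in hippocampus 2. The cortical shares lay above the hippocampal ones, while the levels overlapped, at 83.3, 79.3, 88.0 and 71.3 CPM, with the 3 cells. In astrocytes other than these the hippocampal levels were 67.4 and 70.4 CPM, below both cortical ones. Within AST4 it was detected in 58.5% of cells in hippocampus 1 and 50% in hippocampus 2 (54.3% ± 6.04, SD, n = 2), and in 56.4 and 48.9% without the 3 cells, against shares of 17.5, 25.5, 19.2 and 18.98% in AST1 in the order of suspensions above, 32.1, 30.7, 20 and 13.6% in AST2, and 41.6, 41.1, 24.6 and 19.5% in AST3. The AST4 values were above all of these, with and without the 3 cells. Its AST4 level of 433 and 260 CPM was also above that of every other subtype sum, the highest of which was 135 CPM in AST5 of hippocampus 1, and remained so without the 3 cells at 239.4 and 258.1 CPM.

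Ccnd3, cyclin D3, was detected in 27.8, 25.3, 22.1 and 19.2% of astrocytes in the same order. In AST3 the cortical suspensions (38.3 and 33.8%) lay above the hippocampal ones (18.5 and 18.3%), while in AST1 all 4 lay between 17.5 and 21.03%. Ccnd1, cyclin D1 (chromosome 7, 144929931 to 144939925), was rarer, in 6.29 and 6.41% of cortical and 2.54 and 2.80% of hippocampal astrocytes. It was more frequent in microglial cells, with 4 of 11. Ccnd1 has exons that overlap those of another gene on the other strand, and the libraries do not keep strand. The same holds for Ccnd2, Ccnd3, Cdk4, Cdk6, Cdkn1a and Cdkn1c.

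**Figure D4:**
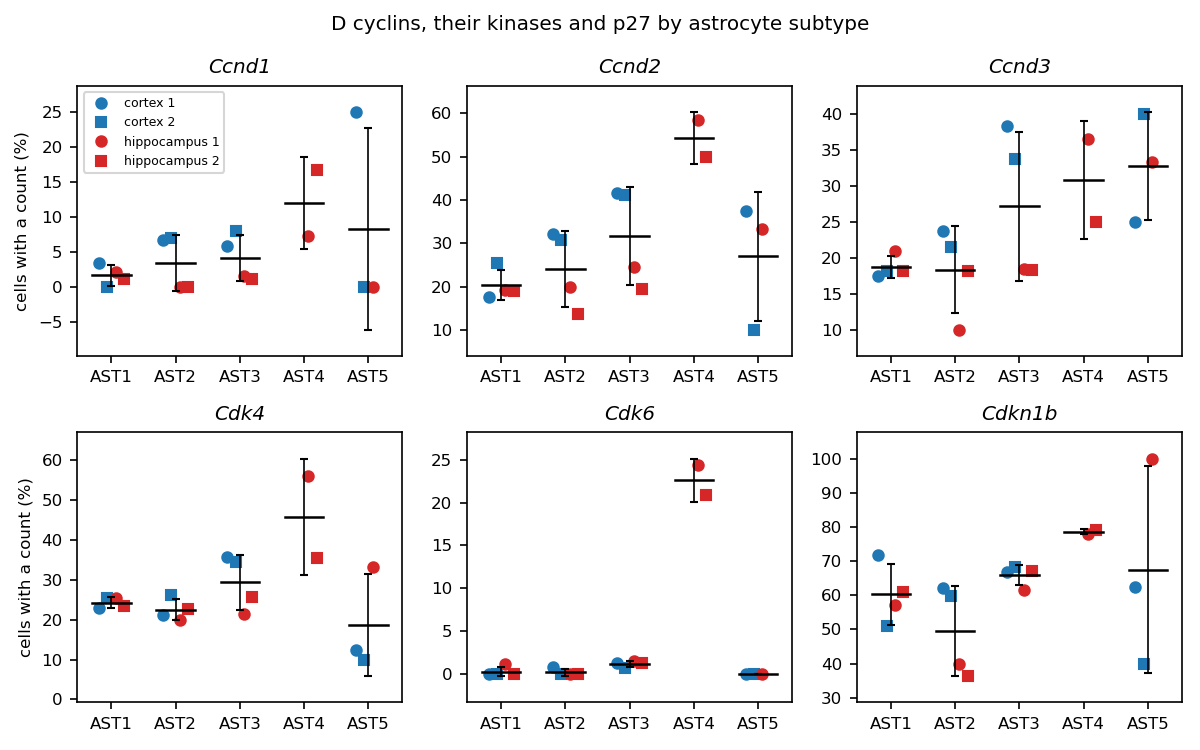
Percent of cells with a count of the 3 D cyclins, their kinases Cdk4 and Cdk6, and the inhibitor Cdkn1b in each astrocyte subtype, with points for suspensions of at least 5 cells and the mean with SD over them. In AST4 Ccnd2 (58.5 and 50%) and Cdk6 (24.4 and 20.8%) lie above the points of AST1, AST2, AST3 and AST5, and Cdkn1b is detected in most cells of most subtypes.

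Cdk4, the kinase that D cyclins activate (chromosome 10, 127063534 to 127067920), was detected in 26.5, 28.3, 28.0 and 25.0% of astrocytes, and no suspension stood out. In AST4 it was in 56.1 and 35.4% of cells, at 393 and 233.9 CPM, and without the 3 cells in 53.8 and 34.04% at 320.4 and 173.5 CPM, where the highest other subtype sum was 140.5 CPM in AST2 of hippocampus 2. The shares overlapped, since AST3 had it in 35.7 and 34.4% of cortical cells. Cdk6, the other kinase of this pair (chromosome 5, 3341485 to 3531008), was found mainly in AST4 among astrocytes, 20 of 91 cells had a count, against 3 of 657 in AST1, 2 of 555 in AST2, 5 of 452 in AST3 and 0 of 26 in AST5. It was in 18 of 88 AST4 cells without the 3 cells. Its AST4 level was 107.9 and 82.6 CPM, and 74.2 and 85.0 CPM without the 3 cells. The highest sum of any other subtype was 4.72 CPM. Mural cells had it as well, in 22.2, 58.3, 29.2 and 31.9% of cells.

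A D cyclin together with Cdk4 or Cdk6 in the same cell was seen in 42.9% of AST4 cells (51.2% in hippocampus 1 and 33.3% in hippocampus 2), in 9.13% of AST1, 12.3% of AST2, 19.3% of AST3 and 3.85% of AST5 cells, and in 21.6% of mural cells. Without the 3 cells the AST4 share was 40.9%. Thinning of all cells to 500000 counts gave 41.8% in AST4 and 8.22, 11.9 and 17.9% in AST1, AST2 and AST3. These shares are given as a description, without a test.

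The inhibitor Cdkn1b, p27 (chromosome 6, 134920401 to 134925513), which holds cyclin-kinase pairs inactive in resting cells, was the member found in most cells. Astrocytes had it in 64.9, 60.9, 60.3 and 62.6% of cells, a spread of a few points over the suspensions, at 55.4, 48.2, 57.1 and 70.4 CPM. In AST4 it was in 78.0 and 79.2%, or 76.9 and 78.7% without the 3 cells, and in neurons in 88.2% of 17 cells. Its median count where detected was 65, against 598.5 for Cdk4. Both cycling cells had it, at 26.7 and 74.6 CPM.

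The related inhibitors were found in other cells than astrocytes. Cdkn1a, p21, the inhibitor induced by p53 (chromosome 17, 29090976 to 29100727), was in 21 of 30 endothelial cells, with shares of 55.6, 66.7, 83.3 and 75.0% and levels of 471, 216.4, 1024 and 711 CPM, where cortex 2 had 3 cells. Astrocytes had it in 0.868, 2.20, 0.509 and 1.17% of cells, at 0.814 to 3.52 CPM, so that the 2 classes did not overlap in any suspension. Cdkn1c, p57, an imprinted inhibitor, was in 11 of 17 neurons, at 188.8 and 202.4 CPM in hippocampus 1 and 2, in 8 of 30 endothelial cells and 11.2% of mural cells, and in 4 of 1781 astrocytes.

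The licensing members load the MCM helicase on DNA before S phase. Mcm4 and Mcm7 were the most frequent in astrocytes, at 6.29 and 5.11% of cells, followed by Mcm3 (2.36%), Mcm6 (1.29%), Gmnn (1.24%), Mcm2 (1.07%), Mcm5 (0.337%) and Cdc6 (0.112%). In AST4 64.8% of cells had none of the 6 MCM subunits (67.05% without the 3 cells), against 84.2 to 88.5% in AST1, AST2 and AST3 and 100% in AST5. Mcm7 was in 21.95 and 8.33% of AST4 cells in hippocampus 1 and 2, and Mcm4 in 14.6 and 10.4%. Without the 3 cells these shares were 17.9 and 8.51% for Mcm7 and 10.26 and 10.6% for Mcm4. Among the members of DNA synthesis, Pcna (chromosome 2, 132249162 to 132253314) was in 12.1, 11.8, 11.5 and 13.3% of astrocytes, with little spread, and in 19.5 and 31.3% of AST4 cells, or 15.4 and 31.9% without the 3 cells. Endothelial cells had Pcna in 13 of 30 and oligodendrocytic cells in 5 of 9. Rrm1 was in 5.95% of astrocytes, and its partner Rrm2 in 40 cells outside the 2 cycling cells.

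Some phase-restricted members had counts in cells other than the 2 cycling cells. Outside these 2, Tyms was in 69 cells, Rrm2 in 40, Anln in 24 and Nusap1 in 21. Aurka was in 18, Ccna2 and Cenpf in 16 each and Plk1 in 13. The AST4 cell with the licensing members is among those with Tyms (160 counts) and Rrm2 (4 counts). Of the 69 cells with Tyms 62 had at least 10 counts of it, as had 34 of the 40 with Rrm2 and 13 of the 21 with Nusap1. Without molecular tags these reads do not tell how many molecules a cell held. The cells with Tyms and Rrm2 were spread over AST1 (21 and 13 cells), AST2 (20 and 11) and AST3 (17 and 11). Cenpf and Anln were also found in other types. Cenpf, a kinetochore protein of G2 and M phase (chromosome 1, 189640606 to 189688086), was in 10 of 17 neurons, 62.5% in hippocampus 1 and 55.6% in hippocampus 2, at 662.5 and 367.1 CPM, and Mki67, Cdk1 and Top2a were at 0 in all 17. Anln (chromosome 9, 22332012 to 22389188), a septin-associated protein also known from central myelin, was in 8 AST1, 1 AST2, 5 AST3 and 3 AST4 cells outside the 3, and in 7 of 9 oligodendrocytic cells at 353.9 CPM. In astrocytes these 2 were in 0.449 and 1.01% of cells.

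Each astrocyte subtype was compared with the others to ask whether any member marked it. Counts were summed per subtype and suspension where at least 5 cells were present, giving 17 sums, and tested with the quasi-likelihood test of edgeR with Benjamini-Hochberg adjustment over 18233 genes, of which 42 were members. A gene was called at an adjusted p under 0.05. In AST1 0 members were called (background 0.0384% of genes, 4 members at an unadjusted p under 0.05 beside 4.29% of genes, with 6 called by DESeq2 and 0 by limma on mean log values). In AST2 the count was 0 (background 0.0548%), with 1 at an unadjusted p under 0.05 beside 2.62% of genes, 7 by DESeq2 and 0 by limma. AST3 also had 0 (background 0%), with 3 at an unadjusted p under 0.05 beside 1.89% of genes, 8 by DESeq2 and 0 by limma. In the same order DESeq2 called 5.2, 4.83 and 3.99% and limma 0, 0.0384 and 0.0165% of all genes. DESeq2 called 3, 4 and 7 members without the 3 cells, beside 5.04, 4.58 and 3.97% of genes.

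In AST4 no member passed the test. With edgeR 0 of 42 were called (background 0.636% of genes), 23 had an unadjusted p under 0.05 (background 7.82%), and the median log2 fold change of the members was 6.39 against 0.05 for all genes. Without the 3 cells 36 members passed the filter on low counts, 11 had an unadjusted p under 0.05 (background 7.44%), and the median was 1.56 against 0.02. The members missing here had passed the filter through the 3 cells alone, so the counts and medians over the 42 are a description. Ccnd2 had a log2 fold change of 2.37 ± 0.81 (SE, adjusted p = 0.371), Cdk4 of 1.04 ± 0.83 (adjusted p = 1), Pcna of 1.47 ± 0.63 (adjusted p = 0.569) and Cdk6 of 6.98 ± 3.22 (adjusted p = 0.648). Without the 3 cells these were 1.90 ± 0.83, 0.71 ± 0.85, 0.80 ± 0.68 and 6.73 ± 3.23, with adjusted p of 0.606, 1, 1 and 0.722. Ccna2 was at 11.84 ± 2.56 (adjusted p = 0.0767), and at 6.98 ± 2.58 without the 3 cells (adjusted p = 0.488), which held over 50% of its astrocyte counts. Without them it was in 2 of 88 AST4 cells, at 0.205 CPM in hippocampus 1 and 2.74 CPM in hippocampus 2. AST3 of cortex 1 had 4.97 CPM, while AST1 and AST2 were at 0 in both hippocampal suspensions. AST4 rested on 2 hippocampal sums, since cortex 1 gave 2 AST4 cells and cortex 2 none.

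The number of members called in AST4 depended on the test. On the mean over cells of log2(CPM + 1), which limits the weight of a cell with a very high count, limma called 24 members, all higher (background 12.4% of genes in either direction and 10.9% higher), and DESeq2 on the sums called 17 (background 11.5%). Without the 3 cells DESeq2 called 8, of which 3 were higher and 5 lower (background 11.5%). Limma called 8 without the 3 cells, all higher (background 11.6% in either direction and 10.1% higher). The 24 and 17 were counted over members that include those passing the low-count filter through the 3 cells alone. Both counts are thus a description. Limma without the 3 cells was run on the same 18233 genes, which had been filtered with these cells in. Cdk6 was 1.75 higher on this scale (adjusted p = 1.22e-09) and 1.58 higher without the 3 cells (adjusted p = 1.13e-09). Ccnd2 was 2.88 higher (adjusted p = 0.00241), and 2.65 without them (adjusted p = 0.0044). For Cdk4 the difference was 2.01 (adjusted p = 0.0429), and 1.78 without them (adjusted p = 0.0696). Over all alternatives the adjusted p ran from 1.134e-09 to 1 for Cdk6, from 0.00241 to 1 for Ccnd2 and from 0.0267 to 1 for Cdk4, and each was higher in AST4 in 16 of 16.

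In AST5, the smallest subtype, 3 members were called and all were lower: Mcm3, Mcm4 and Mcm7 (background 17% of genes in either direction and 16.6% lower, with 7 members at an unadjusted p under 0.05 beside 28% of genes). The balance of directions turned with the scaling, since upper-quartile scaling called 9, these 3 lower and Ccnd2, Ccnd3, Cdk4, Cdkn1b, Pcna and Rrm1 higher (background 32.5%). Mcm3, Mcm4 and Mcm7, subunits of the helicase, were at 0 in the 26 AST5 cells, whereas 42 of the other 1755 astrocytes had Mcm3 and 91 had Mcm7. Since 0 of 26 cells allows a share of up to 11.5%, which is above the 6.29% of Mcm4 and the 5.11% of Mcm7 in all astrocytes, the shares of cells did not show a difference. The adjusted p was 0.0274 for Mcm3, 0.00603 for Mcm4 and 0.00802 for Mcm7, and none of the 3 was called without cortex 1 or cortex 2 or hippocampus 2. DESeq2 called 18 members (background 43.7%) and limma 1, which was higher (background 18.5%). The median log2 fold change was -6.48 over the members and -4.55 over all genes, and the share of members called lay below the background share.

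The mural and endothelial cells of the vessel wall were compared with astrocytes on sums per class and suspension, 13 in all, over 17404 genes and 43 members. In mural cells 5 members were called, 1 higher and 4 lower (background 15.1% of genes, 2.37% higher and 12.7% lower). Mcm6, a helicase subunit (chromosome 1, 128331590 to 128359664), was the one higher, in 7.41, 16.7, 12.5 and 21.3% of mural cells at 36.3, 195.1, 87.9 and 234.1 CPM, against 0.217, 0.401, 3.05 and 1.87% of astrocytes at 1.43, 1.34, 23.4 and 6.68 CPM. The lowest mural level lay above the highest astrocyte level, and its log2 fold change was 4.05 ± 1.01 (SE, adjusted p = 0.0301). It was called without the 3 cells and, in all, called in 6 of 13 alternatives with adjusted p from 1.695e-05 to 0.188. Mcm6 was not particular to mural cells, since 5 of 17 neurons had it at 162.8 CPM and 4 of 30 endothelial cells at 63.4 CPM.

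The 4 lower members, Ccnb2, Cenpf, Nusap1 and Anln, were at 0 in all mural cells and in 9, 8, 22 and 18 of 1781 astrocytes. A count of 0 mural cells allows a share of up to 2.24%, and the astrocyte shares of 0.505, 0.449, 1.24 and 1.01% lay below it, so a difference in the share of cells was not detectable. Their adjusted p ran from 0.02985 to 0.0472, and of these 4 Ccnb2 alone was called without the 3 cells. With the suspension as a block 0 of the 5 members were called, with an adjusted p of 0.1498 for each (11 members at an unadjusted p under 0.05, beside 29.1% of genes). The same block left Mcm6 at a log2 fold change of 3.93 ± 1.30. None of the 5 was called when any suspension was left out. By DESeq2 12 members were called in mural cells (background 28.4%) and by limma 5 (background 22.8%). Cdk6 in mural cells had a log2 fold change of 5.91 ± 2.35 (adjusted p = 0.134).

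In endothelial cells 0 members were called by edgeR (background 5.61% of genes), with 20 at an unadjusted p under 0.05 (background 34.1%), 17 called by DESeq2 (background 36.5%) and 9 by limma (background 27.9%). Cdkn1a had a log2 fold change of 7.61 ± 2.12 (adjusted p = 0.0549), and was called in 5 of 13 alternatives with adjusted p from 4.76e-06 to 0.3095. Cdkn1c followed at 6.13 ± 1.95 (adjusted p = 0.0634), and Ccnd3, in 14 of 30 endothelial cells, at 1.05 ± 0.40 (adjusted p = 0.0993). Endothelial-labelled cells also carried mural markers, 5 of 7 in over 25% of cells and Acta2 at 0, with a sum of 10010 to 25820 CPM, and the part of these in the values was not tested. In neurons, present in hippocampus alone, the same fit gave Cenpf a log2 fold change of 6.22 ± 1.82 (adjusted p = 0.118) and Cdkn1c one of 8.32 ± 2.39 (adjusted p = 0.1104).

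**Figure D5:**
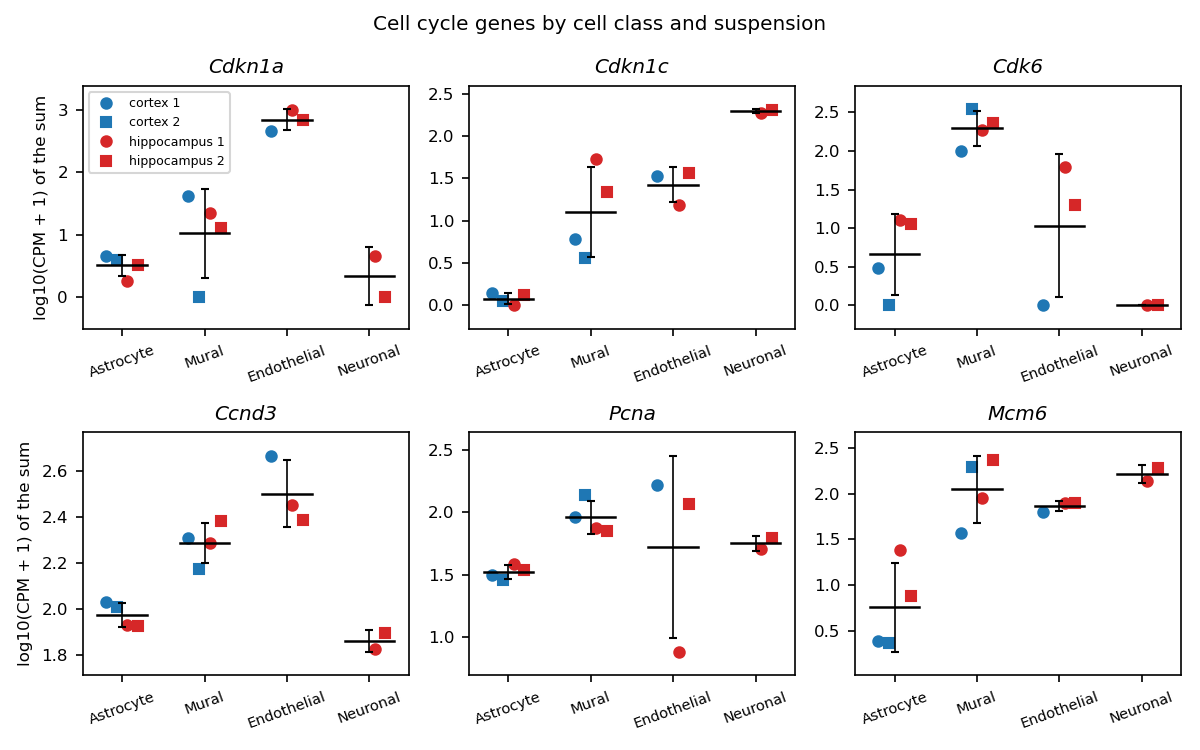
Level of 6 members, as log10(CPM + 1) of the summed counts, in astrocytes, mural cells, endothelial cells and neurons, with a point per suspension of at least 5 cells and the mean with SD. Cdkn1a is highest in endothelial cells (471 to 1024 CPM at the 3 points shown), Cdk6 and Mcm6 are higher in mural cells than in astrocytes, and Cdkn1c is highest in neurons (188.8 and 202.4 CPM).

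Hippocampal and cortical astrocytes were compared on 4 sums, over 19160 genes and 42 members. Both cortical mice were of the same litter and the hippocampal mice of other litters, so region and litter cannot be told apart. With edgeR 0 members were called (background 0%), 10 members reached an unadjusted p under 0.05 (background 13.6%), DESeq2 called 8 (background 9.7%) and limma 2 (background 2.64%). The hippocampal sums in these counts include the 3 AST4 cells. Cdk1, Aurkb and Mki67 were at 0 in both cortical sums, and their hippocampal counts came from the 3 cells alone. The counts of members are thus a description. Ccnd1 was at 22.4 and 22.9 CPM in the cortical and 5.43 and 4.58 CPM in the hippocampal suspensions, a log2 fold change of -2.16 ± 0.24 (adjusted p = 0.155). Its share of cells also differed by subtype, at 1.67% in AST1, 6.49% in AST2 and 5.09% in AST3. The 3 cells raised hippocampus 1, which without them was at 3.47 CPM, with a log2 fold change of -2.46 ± 0.27 (adjusted p = 0.1705). In AST1 cells alone it was -1.45 (adjusted p = 1) and in AST3 alone -4.04 (adjusted p = 0.380), within a range over the alternatives of 7.75e-10 to 1. The AST1 suspensions overlapped, at 8.74 and 0 CPM in cortex and 2.26 and 0.822 CPM in hippocampus. The median log2 fold change of the members was 1.01 against 0.01 for all genes, and 0.01 for both without the 3 AST4 cells, so that the upward lean was absent without these cells.

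Other genes of the pathway were read in 5 lists beside the members, tested over the same genes. In AST4 1 of 12 tested genes of other inhibitors and p53 was higher, Btg2, an antiproliferative gene (log2 fold change 3.06), and 1 of 31 mitosis factors, the nucleosome-binding Hmgn2 (2.48), beside 0.636% of all genes. The RB and E2F (17), CDK activation (18) and replication (36) lists had 0 called there by edgeR. In mural cells Btg2 (3.06) and Gadd45b, a stress-induced gene (4.15), were higher, as was Lbr, the lamin B receptor (2.60), beside 2.37% of all genes, whereas 2 of 18 activation, 4 of 37 replication and 3 of 31 mitosis factors were lower, beside 12.7% of all genes. In endothelial cells Cks1b alone was called, lower, beside 5.61% of all genes called. In neurons E2f5, a repressive E2F, was lower and Tubb4b, a tubulin, higher (1.57), each 1 of its list (16 and 31 tested), beside 2.86% of all genes called. AST5 had 3 of 17, 1 of 12, 3 of 18, 7 of 36 and 5 of 31 called in the 5 lists, all lower, beside the 16.6% of all genes. In AST1, AST2 and AST3 and between regions 0 genes of these lists were called by edgeR.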

How the data were processed

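Smart-seq2 libraries of sorted single cells were aligned by the authors with STAR 2.5.2b to GRCm38.p5 with Gencode M12 and counted per gene with HTSeq, after FastQC 0.11.4. What the authors deposited are raw counts, without normalization, for every gene of a cell. The series table holds the same counts, was compared for 32 columns, and its other 1998 columns were not used. Reads outside exons, reads on more than 1 gene and ERCC spike-ins stayed out of totals. Wells held single sorted cells and no doublet caller was run. Cell types come from the list of the study; 33 cells are not in the copy used here and 15 carry no type.

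Counts were summed per type and suspension (at least 5 cells) and fitted with edgeR 4.0.16 in R 4.3.3 (TMM scaling, low-count filter, robust quasi-likelihood test, region as a term), each subtype against the others weighted by cell number. The adjustment covered all genes tested, and SE was taken from the fold change and its F value. The fits left 11 residual degrees of freedom for subtypes, 8 for classes and 2 for regions, with biological coefficients of variation of 1.58, 1.61 and 0.903. Alternatives were DESeq2 1.42.0 (with and without the 3 cells of 20 or more members), limma 3.58.1 on mean log2(CPM + 1), upper-quartile scaling, no filter, thinning to 500000 counts, 10 cells per sum, no region term, equal weights, the suspension as a block and each suspension left out. Exact intervals, shares and promoter motifs were computed in Python 3.11.15. The fits were also run on simulated counts, and the outcome is not reported here. Sums of a suspension share mice, which gives the pairing. Residuals of sums from the same suspension correlated at -0.0946 (subtypes) and -0.0999 (classes). From different suspensions of the same region they correlated at -0.153 and -0.201. The fitted terms make such residuals lean negative, so these values do not settle the pairing.

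Positions are from Gencode M21 on GRCm38. Exons of 17 members overlap another gene, 16 on the opposite strand. Among them are Ccnd1, Ccnd2, Ccnd3, Cdk4, Cdk6, Cdk2, Ccne2, Cdkn1a, Cdkn1c, Mcm7, Ccna2, Plk1, Cdc20, Ube2c, Cdca8 and Nusap1. Reads in a shared stretch cannot be told apart without strand. The members and lists were chosen with earlier results of these data known. Genes named are members in more than 10% of astrocytes or of a class of 9 or more cells, members called in a test, members in the cycling cells, and up to 3 called genes per list. Others were named after their values were seen. Some values outside the members are not reported here.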

Additional observations from a re-analysis of the deposited data

Results flagged for a closer look

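The share of AST3 cells with a count of Pcna, the polymerase clamp, was 18.8% in cortex 1 and 9.23 to 9.93% in the other suspensions, which put cortex 1 apart from the rest. It was the single such value among 28 groups of 4 suspensions looked at, where chance gives about 1 in 20. The limit to members in more than 10% of cells was chosen after the values were seen, and with rarer members 11 of 93 groups had a suspension apart.

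The hippocampal share of cells with Ccnd3, cyclin D3, minus the cortical share was -17.7 percentage points in AST3, with 38.3 and 33.8% in cortex and 18.5 and 18.3% in hippocampus. In AST1 the shares were 17.54 and 18.18% in cortex and 21.03 and 18.25% in hippocampus, all hippocampal values above the cortical ones, but cortex 2 and hippocampus 2 were nearly equal. This difference between subtypes was not tested.

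A mural cell of hippocampus 2 given in the series table without a file of its own was in no comparison. It had 210 counts of Ccnd3, 403 of Cdk6 and 1742 of Mcm7.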

How the results depend on the processing

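Over 10 results, 93 alternative values kept within 1.5 times the main count and 43 did not. DESeq2 called 6, 7, 8 and 17 members in AST1 to AST4, 18 in AST5 (main 3), 12 in mural cells (main 5), 17 in endothelial cells and 8 between regions. Limma on mean log values called 24 in AST4, 1 in AST5, 9 in endothelial cells and 2 between regions, and 8 in AST4 without the 3 cells. AST4 and region counts that include the 3 cells are a description, as above. DESeq2 without the 3 cells called 3, 4, 7, 8 and 17 in AST1 to AST5, the last beside 43.8% of all genes. Equal weights gave 1 in AST3, 5 in AST4 and 5 in AST5, beside 4.95, 2.82 and 16.7% of all genes. Thinning gave 1 in AST4 and 1 in endothelial cells (0.732 and 6.19% of genes), and no region term gave 3 and 4 (1.09 and 18.5%). A minimum of 10 cells per sum gave 3 in AST4 (1.76% of genes), where Ccnd2 (adjusted p = 0.00546) and Cdk4 (adjusted p = 0.0267) were called. Upper-quartile scaling gave 9 in AST5 (6 higher, 3 lower) and 2 in endothelial cells, beside 32.5 and 4.99%. In mural cells no filter gave 1 (2.49%), leaving out the 3 cells 2 (15.1%), the suspension as a replicate block 0 (2.33%), and leaving out a suspension 0 to 0. In AST5 leaving out a suspension gave 0 to 2, beside 7.29 to 12.4% of genes. The block changed no other count by over 1.5 times, and left 2 calls in AST5 (12.4% of genes). For regions the replicate numbers correlated at -0.015 and do not pair the suspensions, and a block on them gave 0 calls. Leaving out a suspension gave 1 to 2 cycling cells, and at least 3 of the 26 members in place of 5 gave 4. More than 5% of astrocytes in place of 10% gave 10 members and more than 25% gave 3. The settings without the 3 cells and the block on regions were chosen after seeing the data. The cause of these changes was not tested. Depth of at least 600758 counts per cell put 1 count below 2 CPM. AST5, endothelial cells and neurons rest on 26, 30 and 17 cells.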
